A study of Mus musculus with 39 samples.

Results

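The subcutaneous fat of mice that ate a high-fat diet with KAL-1 at 5 µg (HF5) was set against that of mice on the low-fat control diet (LFC), week by week, to ask what stayed different from the lean control at the lowest dose of KAL-1. The members were all HF5 arrays and all LFC arrays of Weeks 3, 6, 9, 12, 15 and 18, which gave 6 HF5 and 6 LFC arrays, or 12 of the 39 arrays of the series. The paper on the liver of this experiment counts weeks from a later day than the start of the diets. There a week number understates the time on the diet. KAL-1 is an ethnobotanical formulation given in water, and its composition is not stated in the labels. All mice were C57BL/6J, were weaned at 3 to 4 weeks of age, were allotted at random to 5 diets of 30 animals and had free access to food and water under 12 hours of light. The LFC diet drew 10% of its calories from fat, and the high-fat diet drew 60% and held more sucrose, so the HF5 mice differed from the LFC mice in fat, in sucrose and in KAL-1 together. In each diet 5 animals were taken every 3 weeks. Each diet had 1 array a week, and the labels leave unstated whether 1 animal or a pool was hybridised, so the p values below measure the spread of the weekly difference between these arrays, which also holds any change with time.

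White fat stores energy as triglyceride, and its cells can make the fatty acids for that store from sugar by de novo lipogenesis. Acetyl-CoA made from citrate or acetate is joined by acetyl-CoA carboxylase and fatty acid synthase, and the product is lengthened by elongases and desaturated before it is stored. The transcription factor ChREBP, encoded by Mlxipl, is known to switch on these enzymes when sugar is plentiful, and dietary fat is known to lower them. Enlarging fat is also known to take up macrophages, some of which handle lipid and carry Trem2 and Gpnmb, and to lay down extracellular matrix.

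Each level below is a log2 value relative to the 75th percentile of its array, which is set to 0, and each difference is the mean over 6 weeks of HF5 minus LFC on the log2 scale with its standard error (SE). Levels of different genes rest on different probes and are not compared. All 8 adipocyte markers were well above background on every array of both diets, as fits the labelled tissue. The 75th percentile of intensity lay between 328 and 1016 (median 580) in HF5 and ran from 108 to 1045 (median 562) in LFC, and the exact sign permutation test over weeks gave p = 0.375 (two-sided, where the smallest possible p was 0.03125). Between 60.3% and 66.9% of spots were well above background in HF5 and between 52.1% and 70.4% in LFC (p = 0.4375 by the same exact test). The HF5 and LFC arrays of a week had shared a scan day in all 6 weeks, and no pair of the 12 arrays shared a slide.

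Several arrays stood apart on lists of genes that mark other cells or the handling of tissue. The LFC array of Week 18 was the dimmest (75th percentile 108), and the mean level of its liver genes was -0.15 where the other LFC arrays lay between -6.32 and -4.98. The LFC array of Week 9 was the next dimmest, at 204. On the LFC array of Week 12 the immediate early genes, which are induced within minutes of a stimulus, had a mean level of -0.78, against 3.16 to 4.33 on the other LFC arrays. The LFC array of Week 3 had a mean level of 1.40 for lymphocyte markers, and the HF5 array of Week 12 had a mean level of 5.14 for skeletal muscle markers. The label of the HF5 array of Week 12 is also in doubt. In the deposited table of ratios the Week 12 column named HF5 followed the array labelled HF20 (r = 0.999 across probes) and the column named HF20 followed the array labelled HF5 (r = 1.00), while in the other weeks each column followed its own array (r from 0.997 to 0.999). The medians of the lists and the values of several genes are therefore also given with these 2 arrays exchanged, so that the array labelled HF20 stands for HF5 at Week 12. The array labelled HF20 stood apart as well, with a mean level of 2.83 for brown adipocyte markers, against -4.95 to -0.22 on the HF5 arrays and at most 0.86 on the LFC arrays, and of 6.50 for heat shock genes, against at most 5.17 and 5.59. Its part in the exchanged values was not tested.

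**Figure D1:**
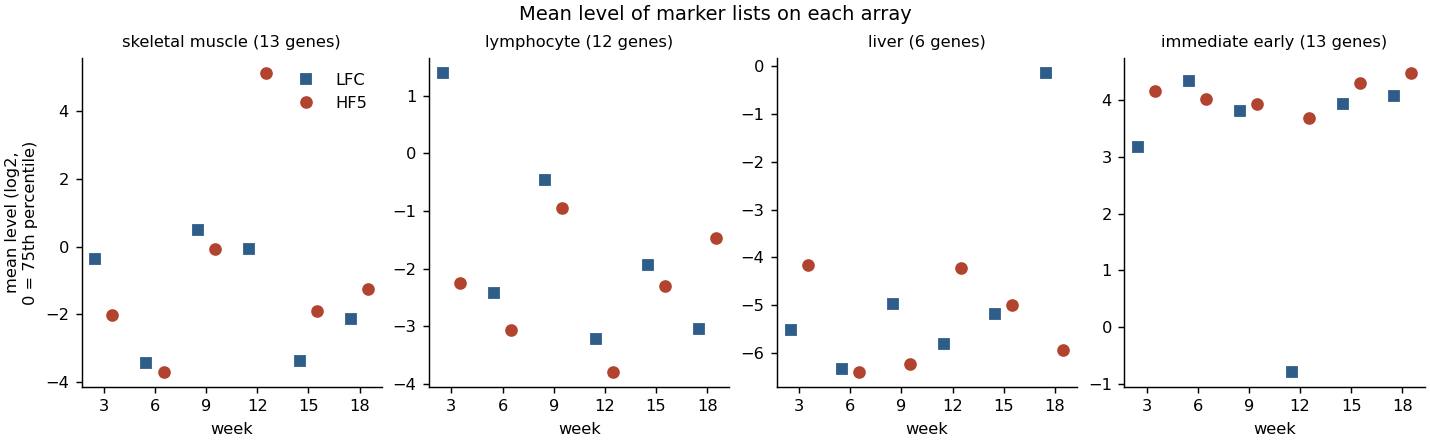
Mean level (log2, 0 is the 75th percentile of the array) of 4 gene lists on each array, by week, with LFC as squares and HF5 as circles. The HF5 array of Week 12 stands at 5.14 for skeletal muscle, the LFC array of Week 3 at 1.40 for lymphocytes, the LFC array of Week 18 at -0.15 for liver and the LFC array of Week 12 at -0.78 for immediate early genes.

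No gene passed the test across all genes. Of 19228 genes tested in limma, 0 (0%) reached an adjusted p under 0.05, and the lowest adjusted p was 1.00. The same was true with the Week 12 arrays exchanged, where 0 of 19026 genes (0%) passed and the lowest adjusted p was 1.00. At an unadjusted p under 0.05, 229 genes (1.19%) were higher in HF5 and 436 genes (2.27%) were lower, and with the exchange 227 (1.19%) and 504 (2.65%). Without the pairing by week they were 83 (0.432%) and 166 (0.863%). HF5 was higher in 6 of 6 weeks for 147 genes (0.765%) and lower in 6 of 6 weeks for 255 genes (1.33%), and with the exchange for 143 (0.752%) and 243 (1.28%). As labelled, every HF5 array lay above every LFC array for 0 genes (0%) and below every LFC array for 7 genes (0.0364%). These were Elovl6, the receptor kinase gene Erbb4, the desmosome gene Dsc3, the gap junction gene Gjb1, Prp2, 1700012I11Rik and 4930579G24Rik. The mean difference was above 0 for 8822 genes (45.9%) and below 0 for 10406 genes (54.1%), with a median over all genes of -0.03, and with the exchange 9299 genes (48.9%) and 9727 genes (51.1%), with a median of -0.01. Since no gene passed the adjustment, the values below are a description, and every p named below is an unadjusted limma p.

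The genes of fatty acid synthesis were lower in HF5 than in the lean control. All 18 members tested, of 19 on the list, had a mean difference below 0, with a median of -1.50 against -0.03 over all genes. Of these, 9 had a p under 0.05 (against 2.27% of all genes in that direction) and 5 were lower in 6 of 6 weeks (against 1.33%). Without the pairing by week, 5 had a p under 0.05 (against 0.863%). The member not tested was Acacb, a mitochondrial acetyl-CoA carboxylase, which was well above background on 0 HF5 and 2 LFC arrays.

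Among the regulators, Mlxipl (ChREBP) ran from -3.49 through a median of -2.46 to 2.24 in HF5 and from -2.68 through -0.62 to 4.44 in LFC. Its difference was -1.54 (SE 0.33, p = 0.00148), and it was lower in HF5 in 6 of 6 weeks although the ranges of the diets overlapped. Exchanging the Week 12 arrays gave -1.76. In both diets its level was highest at Week 12, so the difference appears within weeks and not between the groups as a whole. Srebf1, the sterol regulatory factor that also drives lipogenic genes, had a difference of -0.38 (SE 0.31, p = 0.258), with HF5 from 2.95 to 4.75 and LFC from 2.68 to 5.87. The lipogenic factor Thrsp had a difference of -1.59 (SE 0.45, p = 0.00733) and was lower in 5 of 6 weeks.

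Elovl6, the elongase that lengthens palmitate to stearate, had the lowest difference of the list. Its level ran from -0.99 through a median of -0.65 to -0.38 in HF5, and from -0.22 through 1.38 to 6.05 in LFC, so that the diets did not overlap as labelled. The difference was -2.63 (SE 0.80, p = 0.011). The HF5 arrays spanned less than a log2 unit while the LFC arrays ranged from near the HF5 level at Week 3 to the highest level at Week 12, where the LFC spot was saturated. Exchanging the Week 12 arrays gave -2.44, and the diets then overlapped. The array labelled HF20 lay at 0.58, above the LFC arrays of Week 3 (-0.22), Week 6 (0.07) and Week 15 (0.38). The LFC spots of Week 12 were also saturated for Fasn, Me1, Thrsp, Scd1 and Srebf1, so their levels there are lower limits and their differences at that week are bounds. The 12 members with no saturated spot were all below 0, with a median of -1.25 and 5 with a p under 0.05.

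The enzymes that supply and join acetyl-CoA were lower as well. Acss2, which makes acetyl-CoA from acetate, ran from -2.12 through -1.31 to 0.30 in HF5 and from -0.72 through 0.19 to 5.24 in LFC, a difference of -2.11 (SE 0.56, p = 0.00556) with HF5 lower in 6 of 6 weeks. Acaca, the cytosolic acetyl-CoA carboxylase, had a difference of -2.01 (SE 0.62, p = 0.0119), lower in 6 of 6 weeks. Slc25a1, which exports citrate from mitochondria, had a difference of -1.91 (SE 0.69, p = 0.0249), and Me1, which makes NADPH for the synthesis, one of -1.55 (SE 0.52, p = 0.0169), each lower in 5 of 6 weeks. In each of these genes the difference nearest to 0 was that of Week 3 and the most negative one that of Week 12 or Week 18. For Slc25a1 the gap was widest at Week 12, with a level of -0.24 in HF5 and 5.49 in LFC, so its mean leaned on that week.

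Fasn, the fatty acid synthase itself, ran from 3.07 through 4.33 to 6.43 in HF5 and from 4.54 through 5.85 to 8.0 in LFC. Its difference was -1.46 (SE 0.53, p = 0.0251), and it was lower in HF5 in 4 of 6 weeks. The sign at Week 12, 0.41, was set against the saturated LFC spot and is not settled, and without that week the difference was -1.83. Acly, which splits citrate into acetyl-CoA, had a difference of -1.66 (SE 0.73, p = 0.0538). Its gap was widest at Week 12 (0.18 in HF5 and 5.39 in LFC), and HF5 was higher at Weeks 3 and 15. Pnpla3, a lipase of lipid droplets, had a difference of -1.73 (SE 0.49, p = 0.00789).

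The desaturases differed less. The stearoyl-CoA desaturases Scd1, Scd2 and Scd3 had differences of -1.08 (SE 0.51), -0.95 (SE 0.49) and -0.89 (SE 0.43), with p of 0.0661, 0.0875 and 0.0755. These values leaned on single weeks, and leaving out single weeks gave -1.36 to -0.52 for Scd1. The gap was widest at Week 12 for Scd2 (1.94 in HF5 and 5.72 in LFC). For Scd3 it was widest at Week 18 (-4.27 and -1.69). Fads1 and Fads2, which desaturate polyunsaturated fatty acids, had differences of -0.27 (SE 0.44) and -0.64 (SE 0.38), and Elovl5, which lengthens them, had one of -0.08 (SE 0.33). Elovl5 was the only member whose difference turned above 0 with the Week 12 arrays exchanged (0.02).

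**Figure D2:**
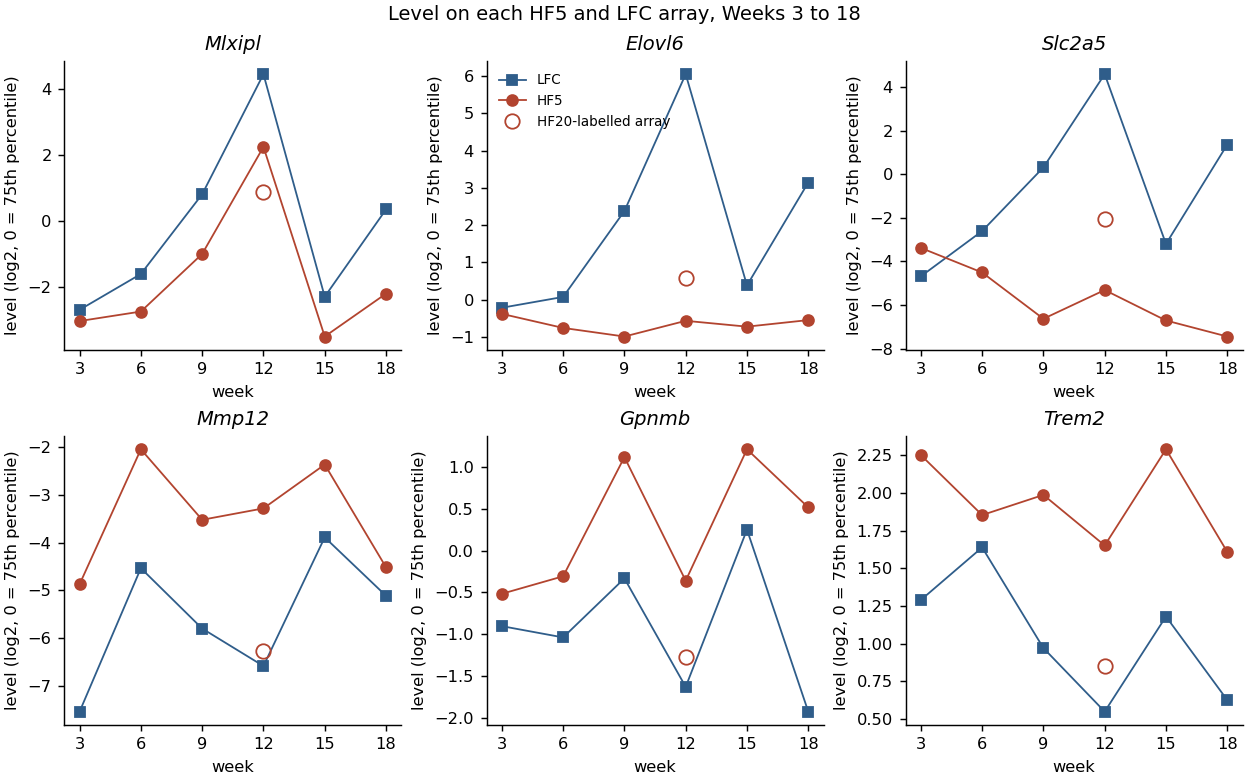
Level (log2, 0 is the 75th percentile of the array) of 6 genes on each array by week, with LFC as squares and HF5 as filled circles, and the array labelled HF20 that replaces HF5 at Week 12 in the exchange as an open circle. Mlxipl, Elovl6 and Slc2a5 lie lower in HF5 (Slc2a5 in 5 of 6 weeks) and Mmp12, Gpnmb and Trem2 lie higher in 6 of 6 weeks.

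The list kept its sign when single weeks were left out, but its size rested on certain LFC arrays. The median of the list by week was 0.13 at Week 3, -0.81 at Week 6, -1.69 at Week 9, -2.39 at Week 12, -0.75 at Week 15 and -2.63 at Week 18. The weeks with the most negative medians were those in which the mean level of the list in LFC was highest, at 2.01 in Week 9, 4.00 in Week 12 and 2.06 in Week 18, against 0.01 to 0.52 in the other weeks. In HF5 the mean level of the list ran from -0.37 to 1.42, with the highest value at Week 12. With the Week 12 arrays exchanged the median was -1.30, with 1 of 18 members above 0 and 10 lower with a p under 0.05 (against 2.65% of all genes). With Weeks 9 and 18 left out, which hold the 2 dimmest LFC arrays, the median was -0.93, 17 of 18 members were below 0 and 2 members had a p under 0.05 (against 2.11% of all genes in that direction). The adipocyte marker list had a median difference of -0.14 over 8 genes (2 above 0), and leaving out single weeks gave medians from -0.45 to 0.16. Saturated spots were found for 6 of the 8 markers, and for 4 of them in both diets in a week, so this median is uncertain. At Week 18 the median was -2.06, so the LFC array of Week 18 was also higher in adipocyte markers. Its part in the difference at that week was not tested, and in bulk tissue fewer cells of a type and less RNA per cell cannot be told apart.

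The promoters of the genes that carry this difference are shown for 4 members with a p under 0.05, with the E-box as the motif searched. The 250 bases before the start of each gene are given 5′ to 3′ on the strand of the gene (RefSeq, build GRCm38.p6), in lower case with any E-box (CACGTG, the same on both strands) in capitals. They are Mlxipl at chr5:135089640-135089889 (plus strand, the second of its RefSeq entries), Slc25a1 at chr16:17928220-17928469 (minus strand), Elovl6 at chr3:129532136-129532385 (plus strand) and Acss2 at chr2:155517793-155518042 (plus strand).
Mlxipl: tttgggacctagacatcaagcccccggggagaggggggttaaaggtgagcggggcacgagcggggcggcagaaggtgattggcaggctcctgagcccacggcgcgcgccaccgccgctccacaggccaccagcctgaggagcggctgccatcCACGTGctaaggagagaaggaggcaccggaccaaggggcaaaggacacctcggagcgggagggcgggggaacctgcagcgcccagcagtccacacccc
Slc25a1: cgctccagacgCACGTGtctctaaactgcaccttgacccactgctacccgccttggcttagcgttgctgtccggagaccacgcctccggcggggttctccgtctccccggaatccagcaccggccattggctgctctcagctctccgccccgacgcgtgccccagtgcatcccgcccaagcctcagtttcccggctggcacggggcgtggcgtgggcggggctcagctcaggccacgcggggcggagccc
Elovl6: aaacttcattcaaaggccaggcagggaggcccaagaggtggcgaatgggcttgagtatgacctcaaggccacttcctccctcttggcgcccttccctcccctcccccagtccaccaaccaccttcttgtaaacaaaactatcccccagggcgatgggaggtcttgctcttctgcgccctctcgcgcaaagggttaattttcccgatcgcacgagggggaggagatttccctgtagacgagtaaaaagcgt
Acss2: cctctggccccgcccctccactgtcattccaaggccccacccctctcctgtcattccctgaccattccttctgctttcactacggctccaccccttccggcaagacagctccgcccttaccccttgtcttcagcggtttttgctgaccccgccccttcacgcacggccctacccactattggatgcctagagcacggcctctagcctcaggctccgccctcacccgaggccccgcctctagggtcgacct
The E-box began at position -98 from the start in Mlxipl and at -239 in Slc25a1, and the windows of Elovl6, of Acss2 and of the first RefSeq entry of Mlxipl (chr5:135106641-135106890) held none. Of the 18 genes tested, 15 matched RefSeq with 19 promoters, and 3 of these (15.8%), of Mlxipl, Slc25a1 and Elovl5, held a CACGTG, against 6.02% of all 32817 promoters of this length. A match is a description of the letters only.

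The uptake and use of sugar showed a difference in a few members. Of 21 members tested, 15 had a difference below 0, with a median of -0.29, 2 had a p under 0.05 and were lower (against 2.27% of all genes), and none had one and was higher. The exchange gave a median of -0.25. Slc2a5, the fructose transporter GLUT5, had the lowest difference of any list member, at -4.96 (SE 1.41, p = 0.00761). Its level ran from -7.45 through -5.97 to -3.38 in HF5, where 2 of 6 arrays were well above background, and from -4.69 through -1.15 to 4.59 in LFC, where all 6 were. HF5 was lower in 5 of 6 weeks and higher by 1.31 at Week 3, and the diets overlapped. With the exchange the difference was -4.42. With Weeks 9 and 18 left out the median of the list was -0.04. At a p under 0.05, 0 members were then lower (against 2.11% of all genes) and 1 was higher (against 1.35%). Tkt, the transketolase of the pentose phosphate path, ran from 3.76 through 4.45 to 5.20 in HF5 and from 4.27 through 5.50 to 7.14 in LFC, a difference of -1.18 (SE 0.38, p = 0.0134), lower in 6 of 6 weeks, with the LFC spot of Week 12 saturated. Khk, which phosphorylates fructose, had a difference of -0.37 (SE 0.26), and the insulin-responsive glucose transporter Slc2a4 one of -0.59 (SE 0.42, with the LFC spot of Week 12 saturated). On the other side, Pdk4, which holds back glucose oxidation, had a difference of 0.55 (SE 0.29, p = 0.0903) and the hexokinase Hk2 one of 0.79 (SE 0.58).

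Cholesterol synthesis and uptake ran in the same direction with smaller values. Of 22 members, 19 had a difference below 0, with a median of -0.57, and 2 had a p under 0.05 (against 2.27% of all genes), namely the sterol cyclase Lss (-1.29, SE 0.53, and -0.86 without Week 12) and the mevalonate enzyme Pmvk (-0.99, SE 0.39). Without the pairing by week 0 members had one. The regulator Srebf2 had a difference of 0.13 (SE 0.38), which was below 0 under 5 of 20 alternatives. The median of the list was -1.85 at Week 12 and -0.27 without that week, when no member had a p under 0.05 although 4.33% of all genes were lower at that p. With the exchange it was -0.67, with 19 of 22 below 0.

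Genes of lipid storage and breakdown differed little as a group. Of 22 members, 16 had a difference below 0, with a median of -0.12. Agpat2, which adds the second acyl chain in triglyceride synthesis, was the only member with a p under 0.05 (against 2.27% of all genes in that direction). It ran from -2.63 through -1.83 to 0.28 in HF5 and from -2.45 through -0.33 to 4.72 in LFC, a difference of -1.60 (SE 0.58, p = 0.0237), lower in 6 of 6 weeks, and without Week 12 the difference was -0.96. The hormone-sensitive lipase Lipe (-0.06, SE 0.42), the adipocyte regulator Pparg (-0.16, SE 0.44) and the lipid droplet coat gene Plin4 (0.53, SE 0.30, with both spots of Week 12 saturated) were among the others. Saturated spots were found for 11 of the 22 members, and 8 of the other 11 were below 0, with a median of -0.14. Without Week 18 the median of the list was 0.10, with 16 of 22 members above 0, and with the exchange it was -0.13.

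Among genes of fat expansion and adipokines, 8 of 13 had a difference above 0, with a median of 0.24 and no p under 0.05. With the exchange 6 of 13 were above 0 and the median was -0.015, so the direction was lost. Mest, which marks expanding fat, ran from 0.01 through 1.67 to 3.18 in HF5 and from -0.03 through 0.58 to 1.48 in LFC, a difference of 0.95 (SE 0.41, p = 0.05) that was above 0 in 4 of 6 weeks. With the exchange it was 0.49. Lep, which encodes leptin, lay higher in HF5 in 5 of 6 weeks, with a mean difference of 0.57 (SE 0.45) and with a difference of -1.78 at Week 18, and with the exchange the mean was 0.21, higher in 4 of 6 weeks. Adipoq, which encodes adiponectin, had a measured difference of -0.12 (SE 0.47), but its spots were saturated on both arrays of Week 12, so the sign of the mean is not settled. Sfrp5, a secreted inhibitor of Wnt signalling, had one of 0.47 (SE 0.37).

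Genes of heat production and oxidation were mostly below 0. Of 12 thermogenic members tested, 10 had a difference below 0, with a median of -0.41. Cidea, a lipid droplet protein abundant in brown and beige fat, ran from -3.17 through 0.98 to 3.58 in HF5 and from -2.14 through 3.57 to 6.05 in LFC. Its difference was -2.17 (SE 0.56, p = 0.00449). It was the only member of the list with a p under 0.05 (against 2.27% of all genes in that direction). It was also the only one lower in 6 of 6 weeks (against 1.33%). The LFC spot of Week 12 was saturated, and with the exchange the difference was -1.60 (p = 0.0449), lower in 5 of 6 weeks. Ucp1, the uncoupling protein of brown fat, had a difference of -1.0 (SE 0.54, p = 0.0978) as labelled and of 0.21 with the exchange, since the array labelled HF20 at Week 12 had a difference from LFC of 3.69 and the array labelled HF5 one of -3.57. With the exchange the median of the thermogenic list was -0.18 and 7 of 12 members were below 0. Of 15 members of fatty acid oxidation, 14 were below 0 with a median of -0.33, led by the receptor gene Ppara (-1.04, SE 0.47, and -0.59 with the exchange) and the carnitine carrier Slc25a20 (-0.74, SE 0.35), while Cpt1a, which lets fatty acids into mitochondria, had a difference of 0.33 (SE 0.23). Of 27 members of oxidative phosphorylation, 25 were below 0 with a median of -0.28. No member of the last 2 lists had a p under 0.05, and without Week 12 their medians were -0.10 and -0.13. With the exchange the medians were -0.14, with 11 of 15 below 0, and -0.20, with 23 of 27 below 0. With another background correction (normexp) they were -0.16 and -0.08, against -0.13 over all genes. Under it 11 of 27 members of oxidative phosphorylation were above 0, so that list was no longer lower than all genes.

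Genes of macrophages and inflammation were mostly higher in HF5. Of 21 members, 19 had a difference above 0, with a median of 0.80, 4 had a p under 0.05 (against 1.19% of all genes in that direction) and 3 were higher in 6 of 6 weeks (against 0.765%). The 3 were Mmp12, Gpnmb and Trem2, and the fourth gene with a p under 0.05 was Tnf, the cytokine gene (2.12, SE 0.78, p = 0.0257), higher in 5 of 6 weeks.

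Mmp12, the macrophage elastase, ran from -4.87 through -3.40 to -2.04 in HF5, where all 6 arrays were well above background, and from -7.54 through -5.46 to -3.89 in LFC, where 2 were. The difference was 2.15 (SE 0.37, p = 0.000359), the smallest p of any gene higher in HF5 in all weeks. The ranges overlapped, since the LFC array of Week 15 lay above the HF5 arrays of Week 3 and Week 18 and the LFC array of Week 6 above that of Week 3. With the exchange the difference was 1.65 (p = 0.00232), because the array labelled HF20 was 0.31 above LFC at Week 12 and the array labelled HF5 was 3.31 above it.

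Gpnmb, a glycoprotein of lipid-laden macrophages, ran from -0.52 through 0.11 to 1.21 in HF5 and from -1.93 through -0.97 to 0.25 in LFC, a difference of 1.21 (SE 0.30, p = 0.00404). The ranges overlapped, and its other probe was lower in HF5, so the gene is uncertain. Trem2, the lipid receptor of these macrophages, ran from 1.61 through 1.92 to 2.29 in HF5 and from 0.55 through 1.08 to 1.64 in LFC, a difference of 0.90 (SE 0.23, p = 0.00425), with both of its probes higher. The LFC array of Week 6 was the only one above any HF5 array.

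The genes that mark macrophages in general differed less. Cd68 had a difference of 0.37 (SE 0.43), Emr1, a surface marker of macrophages, of 0.18 (SE 0.46), Itgax (CD11c) of 0.35 (SE 0.43), Itgam (CD11b) of 0.48 (SE 0.45), the growth factor receptor Csf1r of -0.10 (SE 0.55) and the lysozyme gene Lyz2 of -0.25 (SE 0.61). The Itgam value came mostly from Week 15, where HF5 lay at 0.31 and LFC at -2.35. With Weeks 9 and 18 left out, Cd68, Emr1 and Itgax had differences of -0.22, -0.41 and -0.07. The cytokine genes had wide errors. Il6 had a difference of 2.59 (SE 1.48) and the chemokine Ccl2 of 2.26 (SE 1.06), each above 0 in 4 weeks and below 0 in 1, while the sign of Week 15, where the LFC spots of both genes were saturated, is not settled. For Il6 most of this came from Week 12, at 11.28, where the LFC array also had low levels of immediate early transcripts, and for Ccl2 from Week 12 (5.69) and Week 18 (6.84). The Ccl2 spots were also saturated on the HF5 arrays of Weeks 15 and 18, so the value of Week 18 is a lower limit, and the means of both genes are uncertain. The other 19 members of the list had a median of 0.69, with 17 above 0 and all 4 calls.

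**Figure D3:**
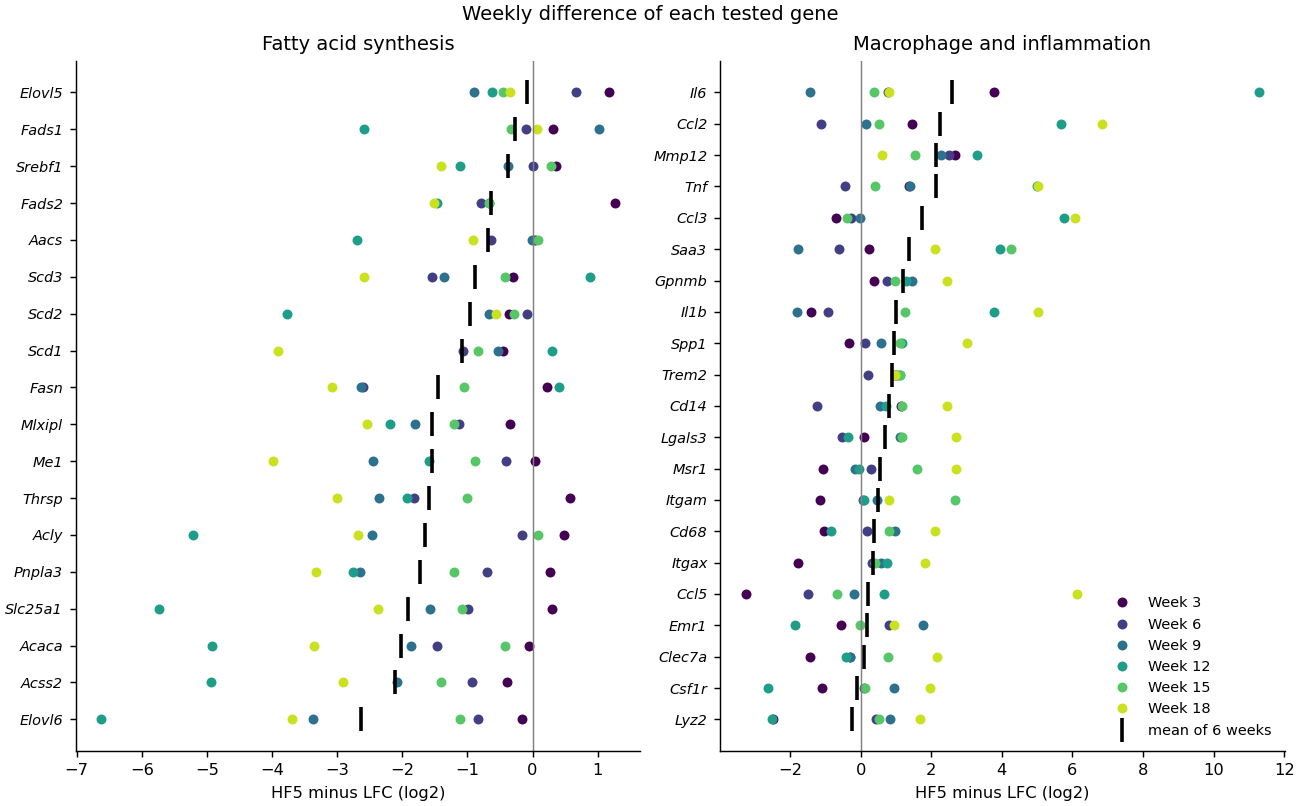
Weekly HF5 minus LFC difference (log2) of each gene tested of the fatty acid synthesis list and of the macrophage and inflammation list, with a point for each week and a bar for the mean of 6 weeks. All 18 means of fatty acid synthesis lie below 0 and 19 of 21 means of the macrophage list lie above 0, with Mmp12, Gpnmb and Trem2 above 0 in all 6 weeks.

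The median of the macrophage list by week was -0.56, 0.09, 0.56, 0.75, 0.80 and 2.16 from Week 3 to Week 18. It was 0.42 without Week 18, 0.72 with the exchange, and 0.45 with 14 of 21 members above 0 when Weeks 9 and 18 were left out. At Week 18 the LFC array was the dim one with liver transcripts, and the part of this in the difference was not tested.

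The genes with the smallest p among those higher in 6 of 6 weeks also held Cyp26b1, which breaks down retinoic acid. It ran from 1.59 through 2.03 to 2.66 in HF5 and from 0.18 through 1.20 to 1.60 in LFC, a difference of 1.03 (SE 0.23, p = 0.00222). A lone LFC array reached above the lowest HF5 array. Mitf, a transcription factor of pigment cells, mast cells and lysosome-rich macrophages, had a difference of 1.14 (SE 0.27, p = 0.00256), but its 2 probes differed in direction. With the exchange Mitf was not higher in every week, since at Week 12 the array labelled HF20 lay at -1.65 and LFC at -1.11. LOC100039744 had one of 1.04 (SE 0.25), Pbp2 one of 1.51 (SE 0.38) and Ereg, which encodes the growth factor epiregulin, one of 1.07 (SE 0.28). Pbp2 and Ereg were well above background on 2 of 6 LFC arrays each, and with normexp background correction their differences were -0.07 and -0.52, where the median of all genes was -0.13.

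The promoter of Mmp12 (its second RefSeq entry, chr9:7347124-7347373, plus strand, build GRCm38.p6) is shown as that of the gene of smallest p among those higher in 6 of 6 weeks, with an M-box (TCATGTG, or CACATGA on the opposite strand) in capitals.
Mmp12: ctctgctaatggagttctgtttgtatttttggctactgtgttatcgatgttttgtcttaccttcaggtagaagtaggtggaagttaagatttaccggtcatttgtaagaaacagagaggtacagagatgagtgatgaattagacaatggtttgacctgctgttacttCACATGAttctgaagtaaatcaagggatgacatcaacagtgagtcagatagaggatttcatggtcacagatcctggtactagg
The M-box began at position -83, and the window of the first RefSeq entry of Mmp12 (chr9:7344147-7344396) held none. Of the 8 genes named as higher, 6 matched with 9 promoters, of which 1 held an M-box and 0 a CACGTG, and 3.25% of all promoters held an M-box. In the macrophage list 2 of 18 promoters held one, those of Mmp12 and Tnf.

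Among the genes with the smallest p that were lower in 6 of 6 weeks, apart from Mlxipl, most were dim. Ninj2, a cell adhesion gene, had a difference of -1.58 (SE 0.25, p = 0.00022), but was well above background on 2 HF5 and 4 LFC arrays and could not be tested with the exchange. Hmmr, a receptor for hyaluronan that is made in dividing cells, had one of -1.23 (SE 0.26, p = 0.0016), and Bglap1, which encodes osteocalcin, one of -2.10 (SE 0.46, p = 0.00183) with 1 HF5 and 5 LFC arrays well above background. The uncharacterised 2010107G23Rik, well above background on every array, ran from -4.82 through -4.32 to -3.04 in HF5 and from -3.83 through -3.38 to -1.42 in LFC, a difference of -1.13 (SE 0.24, p = 0.00143). The olfactory receptor gene Olfr1263, the cytochrome P450 gene Cyp2j11 and the sperm chromatin gene Tnp2 had differences of -1.23, -1.34 and -1.30. At Week 12 the array labelled HF20 lay above LFC for Olfr1263 (-3.49 against -4.22) and for Tnp2 (-3.81 against -3.98). With the exchange these 2 genes were therefore not lower in every week.

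Genes of the extracellular matrix were higher in HF5. All 24 members had a difference above 0, with a median of 0.65, 4 had a p under 0.05 (against 1.19% of all genes) and 3 were higher in 6 of 6 weeks (against 0.765%). Col1a2, Col3a1, Dcn, Timp2, Sparc and Col1a1 had saturated spots, the first 4 of them on both arrays of a week, so their signs are not settled, and the other 18 members were all above 0, with a median of 0.73 and the same 4 calls. With the exchange 4 had a p under 0.05 and 1 was higher in 6 of 6 weeks, and without the pairing by week 1 had a p under 0.05 (against 0.432%). The matricellular gene Thbs2 ran from -0.02 through 0.67 to 1.98 in HF5 and from -1.96 through -0.30 to 0.29 in LFC, a difference of 1.36 (SE 0.44, p = 0.0151), higher in 6 of 6 weeks. Its ranges overlapped, and with the exchange the difference was 1.13 (p = 0.0634), higher in 5 of 6 weeks. Periostin (Postn, 0.89, SE 0.33), connective tissue growth factor (Ctgf, 0.81, SE 0.29) and lysyl oxidase (Lox, 0.87, SE 0.36), which links collagen fibres, were the other members with a p under 0.05. No collagen gene had a p under 0.05, with Col1a1 at 0.54 (SE 0.57, with the LFC spot of Week 15 saturated), Col4a1 at 0.64 (SE 0.41) and Col6a3 at 0.68 (SE 0.42).

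The matrix list rested on Week 18. Its median by week was 0.56, -0.12, 0.41, -0.36, 0.37 and 2.43, and without Week 18 it was 0.24 with 16 of 24 members above 0. With Weeks 9 and 18 left out it was 0.10 with 15 of 24 above 0 and 1 with a p under 0.05 (against 1.35% of all genes), and with the exchange 0.61 with 23 above 0. The fibroblast progenitor markers had a median difference of 0.32 (4 of 6 above 0) and of 2.03 at Week 18, the same week. Their part in the difference of the matrix list was not tested.

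**Figure D4:**
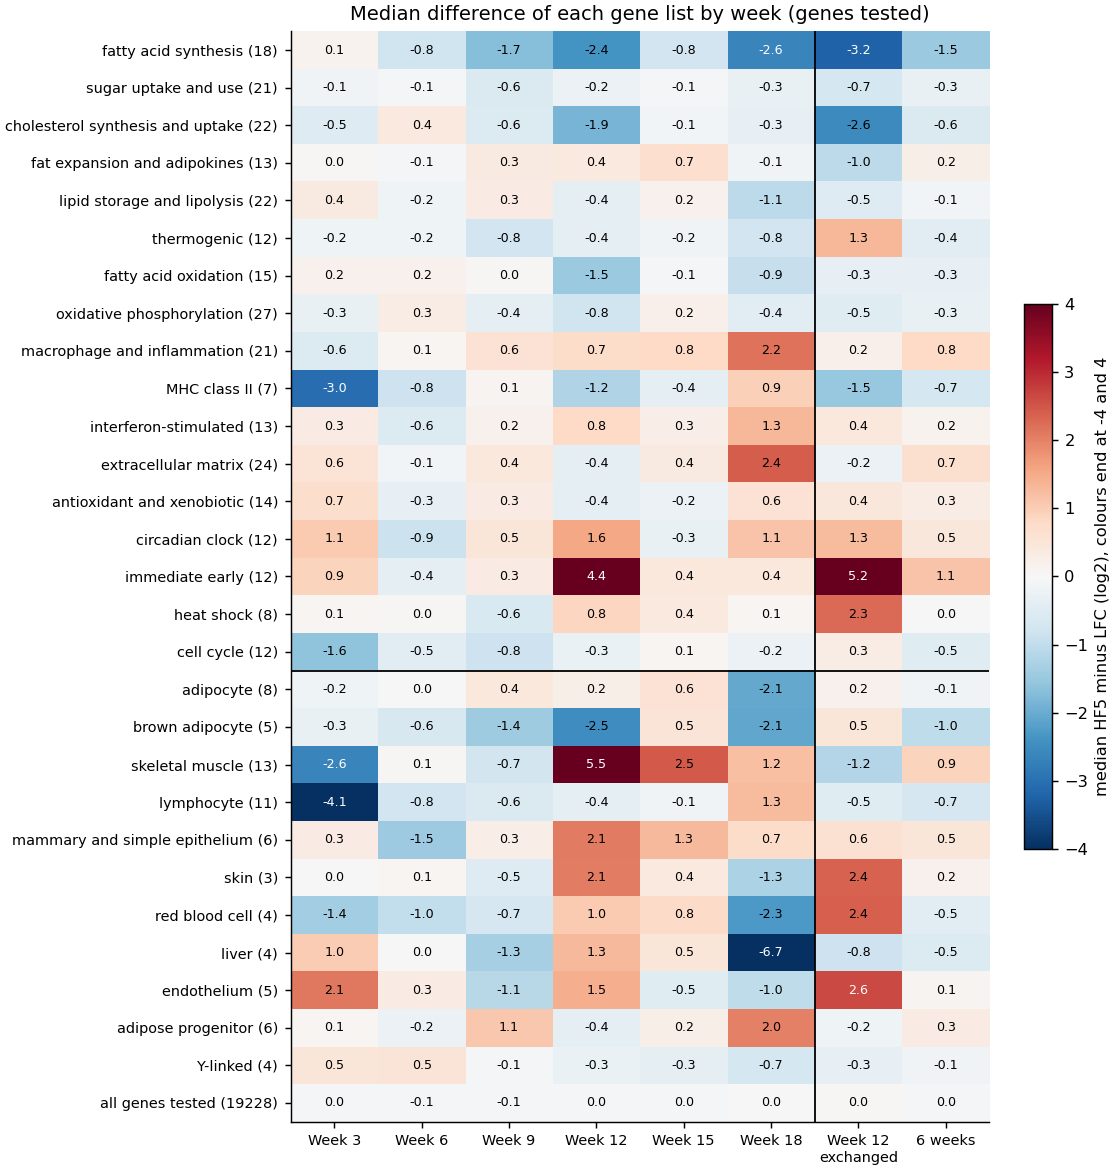
Median HF5 minus LFC difference (log2) over the tested genes of each list, by week, for Week 12 with the arrays exchanged and for the mean of 6 weeks; the number of genes tested is in brackets and the colours end at -4 and 4. Fatty acid synthesis goes from 0.13 at Week 3 to -2.63 at Week 18, macrophage genes go from -0.56 to 2.16, and all genes stay near 0.

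Immediate early genes, which respond within minutes to stress or dissection, were higher in HF5, mainly through 1 week. All 12 members tested had a difference above 0, with a median of 1.14, and 3 had a p under 0.05 (against 1.19% of all genes), or 0 without the pairing by week. Junb, Nr4a1, Egr1 and Atf3 had saturated spots, the first 3 of them on both arrays of a week, so their signs are not settled. The other 8 members were all above 0, with a median of 1.14 and the same 3 calls. The transcription factor gene Fosb ran from 1.98 through 3.01 to 4.07 in HF5 and from -4.65 through 1.74 to 2.97 in LFC, a difference of 2.11 (SE 0.82, p = 0.0327) and one of 1.20 without Week 12. Jun had a difference of 1.07 (SE 0.43) and the phosphatase gene Dusp1 one of 1.20 (SE 0.42), while Fos had one of 1.57 (SE 0.88). The median of the list was 4.36 at Week 12, where the LFC array stood apart, and between -0.35 and 0.89 in the other weeks. Without Week 12 it was 0.44, with 9 of 12 members above 0, and with the exchange, which keeps that LFC array, it was 1.22.

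The circadian clock genes had differences above 0 for all 12 members tested, with a median of 0.45 and no p under 0.05. With array quality weights, which give less weight to arrays far from the fit, the median was 0.067 and 7 of 12 were above 0. Cry1, a repressor of the clock, had the highest, at 0.97 (SE 0.42, p = 0.0511), and was -0.25 with normexp background correction. The weekly medians ran from -0.87 at Week 6 to 1.55 at Week 12, and without Week 6 the median was 0.84 with 6 members at a p under 0.05 (against 1.57% of all genes). With the exchange it was 0.48, with 12 of 12 above 0. The labels give no hour of the day for the dissection.

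Cell cycle genes were lower in HF5. All 12 members had a difference below 0, with a median of -0.49, and the 2 with a p under 0.05 (against 2.27% of all genes), Hmmr and Bub1, were lower in 6 of 6 weeks (against 1.33%). The exchange gave a median of -0.42, with 12 of 12 below 0 and 1 with a p under 0.05. Bub1, a kinase of the spindle checkpoint, ran from -2.92 through -2.20 to -1.17 in HF5 and from -1.66 through -1.22 to 0.14 in LFC, a difference of -1.0 (SE 0.26, p = 0.00496). With the exchange it was -0.53, lower in 5 of 6 weeks. The general proliferation markers Mki67 and Top2a had differences of -0.41 (SE 0.45) and -0.15 (SE 0.36). The list had its most negative median, -1.61, at Week 3, where the LFC array held lymphocyte transcripts, and without Week 3 its median was -0.29 with 11 of 12 members below 0.

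All 7 genes of MHC class II antigen presentation had a difference below 0, with a median of -0.70 and no p under 0.05. The master regulator Ciita ran from -2.84 through -2.27 to -0.80 in HF5 and from -2.92 through -0.99 to 2.37 in LFC, a difference of -1.26 (SE 0.57, p = 0.059). The chain genes H2-Aa, H2-Ab1 and H2-Eb1 had differences of -0.80, -0.70 and -0.75, while the spots of the invariant chain gene Cd74 were saturated on 4 HF5 and 4 LFC arrays, so that the sign of its value is not settled. The weekly median ran from -3.04 at Week 3 to 0.95 at Week 18. The lymphocyte markers moved with it, with a median of -4.06 at Week 3 and 1.28 at Week 18 and a median over weeks of -0.66 (1 of 11 above 0). Their mean level on the 6 arrays ran from -3.79 to -0.94 in HF5 and from -3.23 to 1.40 in LFC. Without Week 3 the median of the class II list was -0.30, with 7 of 7 below 0, and with Weeks 9 and 18 left out it was -1.30 and 6 of 7 members had a p under 0.05 (against 2.11% of all genes). With the exchange it was -0.74, with 7 of 7 below 0. The part of the lymphocytes was not tested.

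Interferon-stimulated, antioxidant and heat shock genes were mixed in sign. Of 13 interferon-stimulated genes, 9 were above 0, with a median of 0.15, and Ifit1, an antiviral effector, had a difference of 1.11 (SE 0.39, p = 0.0211), higher in 5 of 6 weeks. The exchange gave a median of 0.19. Of 14 antioxidant and xenobiotic genes, 9 were above 0, with a median of 0.31, from the glutathione transferase Gsta4 (-0.76, SE 0.48) to the heme oxygenase Hmox1 (1.04, SE 0.74), and with the exchange 11 were above 0, with a median of 0.30. Of 8 heat shock genes, 4 were above 0, with a median of 0.01, and with the exchange 7 were, with a median of 0.44. Of these, Hspa1a, the inducible chaperone, had a difference of 1.21 (SE 0.94) that rested on Week 12 (6.99), with saturated spots on the HF5 arrays of Weeks 6, 15 and 18 and on the LFC array of Week 15, so the mean is uncertain. The 5 heat shock genes with no saturated spot had a median of -0.0093, with 2 above 0.

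Markers of other cells differed mostly through certain arrays. All 13 skeletal muscle markers had a difference above 0, with a median of 0.90, but the median was 5.52 at Week 12, 0.03 without that week and -0.17 with the exchange, with 4 of 13 above 0. The brown adipocyte markers had a median of -1.0 over 5 genes and of -0.52 with the exchange, with Cidea lower in 6 of 6 weeks as labelled. Lhx8, a homeobox transcription factor gene, went the other way, with a difference of 0.97 (SE 0.38). As labelled it was higher in 6 of 6 weeks, with a p under 0.05 (against 1.19% of all genes in that direction). With the exchange no member kept the same sign in 6 of 6 weeks. With normexp background correction the difference of Lhx8 was -0.26, all 5 members were below 0 and the median was -1.04. The medians were 0.11 for endothelium, 0.48 for mammary and simple epithelium, 0.16 for skin, -0.46 for red blood cells, -0.54 for liver and -0.14 for Y-linked genes. Leaving out single weeks gave medians that crossed 0 for endothelium (-0.28 to 0.47), skin (-0.31 to 0.45), liver (-1.20 to 0.39) and Y-linked genes (-0.29 to 0.04). For epithelium they ran from 0.27 to 0.85 and for red blood cells from -0.76 to -0.07. The exchange gave 0.35 for endothelium (5 of 5 above 0), 0.22 for epithelium, 0.14 for skin, -0.22 for red blood cells, -1.36 for liver (2 genes tested) and -0.13 for Y-linked genes (3 tested), -0.08 for adipocytes, -0.72 for lymphocytes and 0.32 for fibroblast progenitors. The levels of skeletal muscle, liver and lymphocyte lists are in the plot of marker lists by array.

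The other diets of Weeks 3 to 18 were compared with the same LFC arrays in a fit of 30 arrays, so their values share those arrays with HF5 and are given side by side only. For fatty acid synthesis the median difference from LFC was -1.50 in HF5, -0.47 on the high-fat diet without KAL-1 (HFC), -1.29 at 20 µg (HF20) and -0.69 at 75 µg (HF75). For the macrophage list the medians were 0.80, 1.24, 0.26 and -0.00 in the same order, and for the matrix list 0.65, 0.62, 0.60 and -0.13. With the Week 12 arrays exchanged the HF20 medians were -1.34, 0.34 and 0.63. Mmp12 had differences from LFC of 2.68 in HFC, 0.29 in HF20 (0.78 with the exchange) and 0.51 in HF75, Trem2 of 1.30, 0.14 (0.28 with the exchange) and 0.12, and Mlxipl of -0.29, -1.74 (-1.51 with the exchange) and -0.24. Elovl6 had differences of -2.09, -2.24 and -2.40 and Slc2a5 of -4.25, -3.65 and -3.38, so that both had a mean below LFC on every high-fat diet.

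HF5 was also set directly against HFC in that fit for the genes named. Mlxipl had a value of HF5 minus HFC of -1.25 (p = 0.262). The same difference was -0.53 for Mmp12 (p = 0.50), -0.61 for Gpnmb (p = 0.302), -0.40 for Trem2 (p = 0.352), -0.54 for Elovl6 (p = 0.431) and -1.18 for Acss2 (p = 0.106).

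**Figure D5:**
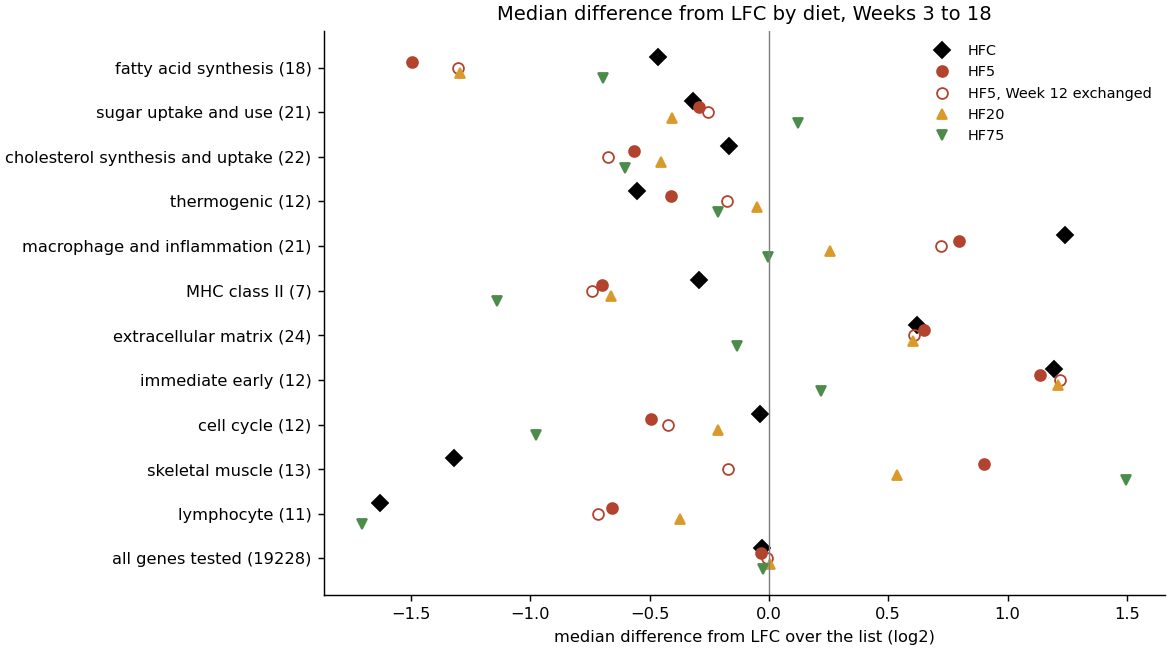
Median difference from LFC (log2) over the tested genes of 11 lists and of all genes for HFC, HF5, HF5 with the Week 12 arrays exchanged, HF20 and HF75; the number of genes tested for HF5 is in brackets. The HF5 values come from the fit of 12 arrays and the others from the fit of 30 arrays, and all share the LFC arrays. HF5 lies at -1.50 for fatty acid synthesis and at 0.80 for the macrophage list.

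The last comparison asked whether the difference from the lean control changed over the experiment, as the mean difference of Weeks 12, 15 and 18 minus that of Weeks 3, 6 and 9. Here too 0 of 19228 genes (0%) reached an adjusted limma p under 0.05, the lowest being 1.00, and at an unadjusted p under 0.05 the difference was higher late for 332 genes (1.73%) and lower late for 136 genes (0.707%). With the exchange 0 of 19026 genes (0%) passed, with a lowest adjusted p of 0.176, and 385 (2.02%) were higher and 169 (0.888%) lower late at an unadjusted p under 0.05. Without Week 18 the lowest adjusted p was 0.139. The genes with the smallest p that were higher late were Trem1, Stfa2l1 and Ltf. Trem1, a receptor of neutrophils and monocytes, went from a mean difference of -2.45 early to 2.59 late (SE of late minus early 0.65, p = 0.000113). Ltf, which encodes lactoferrin and is made in neutrophil granules and in epithelium, went from -3.84 to 0.71 (SE 0.69, p = 0.000314). Stfa2l1, a stefin of myeloid cells, went from -2.86 to 1.88 (SE 0.74, p = 0.00038). All 3 were lower in HF5 in each early week and higher in each late week.

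The genes named as lower late were Gipr, the receptor of the gut hormone GIP, which went from 2.29 to -0.76 (SE 0.72, p = 0.00401), the phosphatase gene Dusp23, from 1.45 to -0.67 (SE 0.50, p = 0.00371), and Gm13768, from 2.10 to -0.72 (SE 0.76, p = 0.0079). With normexp background correction the late minus early value of Dusp23 was 0.04. Fatty acid synthesis had a median of -1.16 for late minus early, with 2 of 18 members above 0, and the macrophage list one of 1.39 with 18 of 21 above 0, against a median of 0.02 over all genes, and 5 of its members were higher late with a p under 0.05 (against 1.73% of all genes). The exchange gave medians of -1.29 and 1.13. Some markers of other cells were also higher late, with medians of 1.68 for lymphocytes (11 of 11 above 0) and 3.00 for skeletal muscle (13 of 13 above 0, 7 higher with a p under 0.05, against 1.73% of all genes). The mammary and simple epithelium list, which holds Ltf, had a median of 2.08 (6 of 6 above 0). The medians of the adipocyte, brown adipocyte, liver, endothelium and Y-linked lists were below 0. The part of these markers was not tested. With these arrays exchanged the medians were 1.90 for lymphocytes (11 of 11 above 0) and 0.94 for skeletal muscle (9 of 13 above 0, 1 with a p under 0.05). No member of the fatty acid synthesis list had a p under 0.05 for this difference. The cell cycle list (0.92) and the class II list (0.99) had all members above 0, with Week 3 among the early weeks.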

How the data were processed

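RNA of mouse subcutaneous fat had been hybridised to 1-colour Agilent arrays. The deposited scanner files hold intensity values per spot, which the authors had background-subtracted in Agilent Feature Extraction (version 9.1 in the submitters' processing notes and 10.5.1.1 in the file headers). A deposited table of the whole series holds the authors' log2 ratios per probe. They were taken here as ratios to the LFC array of each week, because its LFC columns are 0 and the other columns follow that ratio. The table served for an alternative and for the check of the Week 12 labels. Groups and weeks were taken from the labels.

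From the processed intensity, log2 was taken and the 75th percentile of each array was subtracted. Spots flagged as outliers and control spots were dropped, the 43803 remaining spots gave 40628 probes, and each of 29411 gene names was represented by its probe of highest mean over all 39 arrays. Genes well above background on at least 6 of the 12 arrays were tested in limma 3.58.1 (R 4.3.3) with diet and week as terms, with Benjamini-Hochberg adjustment over all genes tested. For genes well above background on few arrays of a group, the value there is near the floor of the scanner and the difference is not a bound. The week numbers pair the arrays because animals of both diets were taken at the same age. Deviations from the group mean correlated within a week at 0.23, 0.70, 0.42, 0.17, 0.30 and -0.24 (Week 18), so 5 of 6 weeks lay above 0.1, against 10 of 30 pairs of different weeks, which ran from -0.45 to 0.48. The correlations alone therefore do not settle the pairing. The scripts were tested on simulated data.

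Genes were named by a rule. It took the 8 genes of smallest p in each direction among those with the same sign in 6 of 6 weeks and well above background on at least 4 of 6 arrays of the higher group, the 2 highest and 2 lowest members of each function list, chosen genes of fat and macrophages, and 3 genes in each direction for late minus early. Other members of a list, promoters and the genes whose groups do not overlap were named after their values were seen. The members, lists and rule were chosen with earlier results of these data known. Of 356 list genes, 352 were on the array. Symbols are those of the array design. Values of some list genes are not reported here, and these genes count in the lists only. Promoters came from RefSeq by symbol. Intensities carry no read depth, and the number of arrays limits the precision.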

Additional observations from a re-analysis of the deposited data

Results flagged for a closer look

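In 16 of 222 groups of 6 arrays the highest or lowest array lay apart from the other 5 by Dixon's criterion, where chance alone gives about 1 in 20. On the LFC array of Week 12, Nsdhl had a level of 1.15 (others -2.90 to -1.76), Nr4a1 1.66 (6.09 to 7.42), Fos -2.41 (3.60 to 5.55), Fosb -4.65 (0.57 to 2.97) and Hspa1a -0.86 (5.36 to 7.20). The mean of the immediate early list on that array was -0.78 (3.16 to 4.33). On the HF5 array of Week 12, Atp5g1 had a level of 3.64 (1.90 to 2.44) and the mean of the sugar list 2.48 (1.68 to 1.85).

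Other single arrays that lay apart were HF5 of Week 15 for Dio2, at -1.49 (-4.47 to -3.51), and for the mean of the cholesterol list, at -1.05 (-0.68 to -0.55). HF5 of Week 9 lay apart for Thbs1, at 0.61 (2.31 to 3.03). HF5 of Week 6 lay apart for Arntl, at 0.59 (-2.14 to -1.36), and for Gipr, at 0.68 (-3.52 to -2.29). The mean of the liver list on the LFC array of Week 18 was -0.15 (-6.32 to -4.98). The mean of the Y-linked list was -0.44 on the HF5 array of Week 3 (-1.90 to -1.39) and -2.36 on the LFC array of Week 6 (-1.38 to -0.79).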

How the results depend on the processing

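Over 20 alternatives for HF5 against LFC, no gene had an adjusted p under 0.05, and the lowest adjusted p was 0.43 with quantile normalization. The 665 genes with an unadjusted p under 0.05 became 1380 with no filter on dim probes, 1357 with array quality weights, 249 with no replicate block (the weeks not paired) and 231 in the unmoderated comparison of group means, and between 550 and 1052 when each week was left out, the highest without Week 12. Of these genes 229 were higher and 436 lower, against 307 and 325 with quantile normalization, 191 and 1189 with no filter, and 224 and 1133 with array weights. With no replicate block the members with an unadjusted p under 0.05 were 5 of fatty acid synthesis (9 with it), 3 of the macrophage list (4), 1 of the matrix list (4), 0 of immediate early genes (3), 0 of the cholesterol list (2), 0 of the thermogenic, lipid storage and interferon lists (1 each), and 2 each of the sugar and cell cycle lists (2 each). The 468 genes for late minus early became 213 with normexp and 334 to 986 without single weeks, 706 without Week 12 and 986 without Week 18. Leaving out Weeks 9 and 18 and the exchange for HF20 were chosen after seeing the data. All weeks share a scan day between diets, so the fit of such weeks only is the same. The causes were not tested.

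Of 88 named genes in the fits, 72 were run under all 20 alternatives, and 50 of these kept their sign. The other 16, which a filter left out of 1 or 2 alternatives, include 9 with no reversal where they were run. With normexp the difference was -0.073 for Pbp2, -0.52 for Ereg, 0.11 for Elovl5, -0.19 for Srebf2, -0.12 for Abhd5, -0.23 for Dio2, 0.081 for Cd74, -0.037 for Tgfb1, -0.18 for Arntl, -0.25 for Cry1, -0.57 for Sfrp5, 0.051 for Adipoq and -0.18 for Itgax, and late minus early was 0.036 for Dusp23. With the Week 12 exchange it was 0.019 for Elovl5, 0.21 for Ucp1, -0.0047 for Lum and 0.021 for Hspd1, and with the deposited ratios 0.017 for Elovl5, 0.20 for Ucp1, -0.0083 for Lum and 0.02 for Hspd1. With quantile normalization it was 0.0046 for Elovl5 and 0.069 for Top2a. With the mean over probes it was 0.046 for Elovl5, -0.22 for Srebf2, -0.15 for Atp5b and 0.085 for Csf1r. With array weights it was -0.014 for Srebf2, -0.066 for Atp5b, 0.18 for Lyz2, 0.13 for Csf1r, -0.12 for Tgfb1, -0.035 for Lum, -0.018 for Nr4a1 and 0.23 for Adipoq. With Weeks 9 and 18 left out it was 0.19 for Elovl5, -0.24 for Srebf2, -0.094 for Abhd5, 0.54 for Ifi44, -0.28 for Tgfb1, -0.40 for Lum, -0.027 for Arntl, 0.063 for Rrm2, 0.38 for Adipoq, -0.22 for Cd68, -0.41 for Emr1 and -0.072 for Itgax.

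Leaving out single weeks gave ranges that crossed 0 for Fads1 (-0.53 to 0.19), Elovl5 (-0.33 to 0.086), Srebf2 (-0.27 to 0.27), Fabp3 (-0.026 to 0.59), Atp5b (-0.13 to 0.075), Lyz2 (-0.64 to 0.20), Csf1r (-0.51 to 0.41), Ifi44 (-0.85 to 0.23), Tgfb1 (-0.14 to 0.15), Lum (-0.29 to 0.24), Clock (-0.13 to 0.26), Arntl (-0.071 to 0.77), Junb (-0.26 to 0.83), Nr4a1 (-0.19 to 0.96), Top2a (-0.46 to 0.084), Adipoq (-0.36 to 0.39) and Emr1 (-0.14 to 0.59). Signal over background limits the dim genes.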
